A study of Mus musculus with 4 samples.

Results

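Glycolysis turns glucose into pyruvate in the cytosol, and most leukemia cells send part of that pyruvate on to lactate. The genes described here cover this route from end to end: glucose carriers, the enzymes of each step, the enzymes that set fructose 2,6-bisphosphate, lactate dehydrogenase, the carriers that move lactate across the cell membrane, and the kinases that switch off pyruvate dehydrogenase and so hold pyruvate in the cytosol. They were chosen by name, 31 genes of the 27179 in the deposited table, and all 31 were found through Entrez gene IDs matched to mouse symbols. Many steps are run by several paralogs, which differ in tissue and in how tightly they are controlled.

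RNA was sequenced from leukemia stem cells (LSCs), the cells held to sustain an acute myeloid leukemia (AML), sorted from mouse bone marrow for yellow fluorescent protein (YFP), Mac-1 and c-Kit. The B7-H4-null group holds 2 samples and the wild type group 2, all on C57BL/6. B7-H4, encoded by Vtcn1, is a B7 family ligand known to dampen T cell responses, and the design sets the genotypes against each other. The sources used here do not say how the leukemia was started, how old the mice were or whether replicates came from separate animals; the p-values therefore reflect differences among 4 samples that may be technical repeats. Vtcn1 had 1 read in each B7-H4-null library and 0 reads in each wild type library, too few to check the genotypes, which are taken from the labels. All 3 sort markers were detected throughout: Itgam and Itgb2, the chains of Mac-1, had 59.9 to 146 RPKM in B7-H4-null LSCs and 86.9 to 213 RPKM in wild type LSCs, and Kit had 9.37 to 11.02 RPKM in B7-H4-null LSCs and 7.19 to 24.0 RPKM in wild type LSCs.

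Levels are given as RPKM, reads scaled to the length of the gene and to the library's total. Of the 31 genes, 28 had at least 1 RPKM in at least 2 libraries and could be tested, and none of these 28 entered through a single genotype, since each stood above 1 RPKM in all 4 libraries. The difference between genotypes was tested with limma on log2(RPKM + 1), with Benjamini-Hochberg adjustment over all 12107 genes tested. The pseudocount understates the change of low genes. Eno2, Pklr and Pdk4 stayed below 1 RPKM throughout and were not tested.

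No gene of the route passed the test. At an adjusted p of 0.05, limma called 0 of the 28 genes, against 0.0991% of all genes tested, and limma's voom on recovered reads called 0 as well. At an unadjusted p under 0.05, 7 of the 28 were higher in B7-H4-null LSCs (Slc2a1, Pfkl, Aldoc, Tpi1, Gapdh, Slc16a1 and Pdk1), where 5.05% of all genes were, and 1 was lower (Ldhb), where 7.2% of all genes were. The smallest adjusted p was 0.228, for Slc2a1.

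The direction of the values was uneven. Both B7-H4-null libraries lay above both wild type libraries for 14 of the 28 genes, or 50.0%, against 16.0% of all genes tested, and below them for 3, or 10.7%, against 28.0% of all genes. After median-ratio scaling of the libraries, these counts were 16 higher and 2 lower, against 22.1% and 22.2% of all genes. The median log2 difference was 0.26 for the 28 genes and −0.09 for all genes tested. The genes are not independent of each other, and no test of the group was made.

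**Figure D1:**
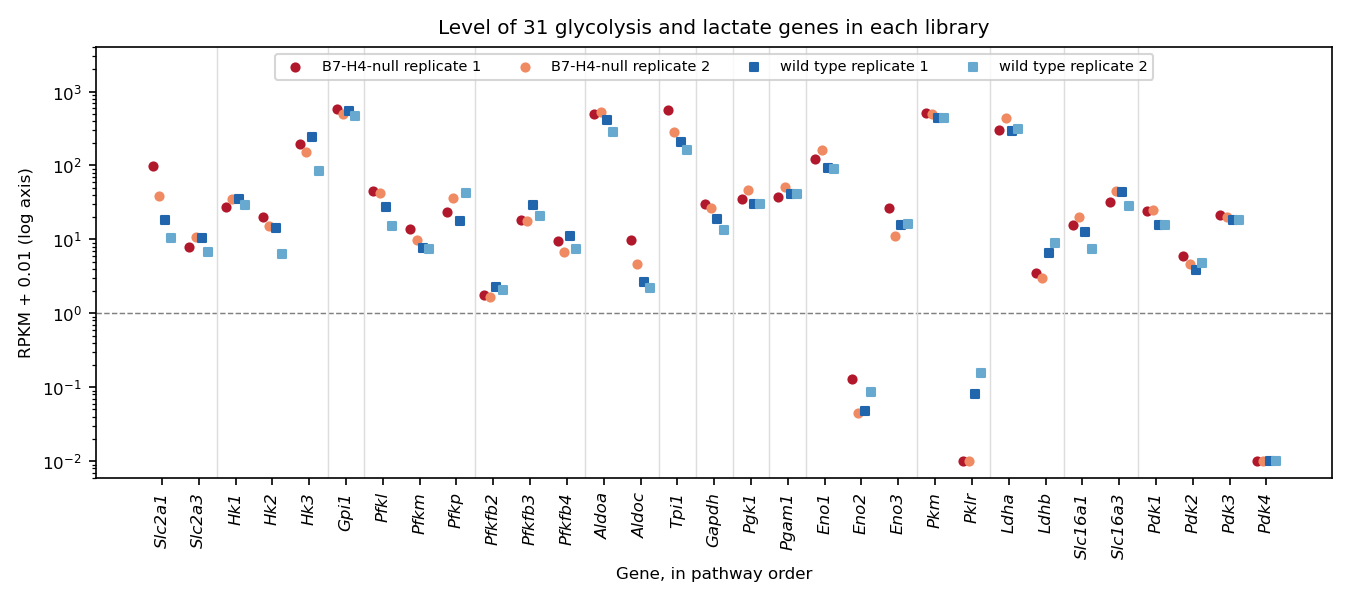
RPKM of each of the 31 genes in each of the 4 libraries, on a log axis with 0.01 added so that 0 can be drawn; circles are the B7-H4-null libraries, squares the wild type libraries, and the dashed line marks 1 RPKM. Slc2a1 shows both circles above both squares, Ldhb both below, and Eno2, Pklr and Pdk4 lie under the dashed line in every library.

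The levels were unevenly spread over the libraries. Of the 28 genes, 17 had their lowest level in wild type replicate 2, 4 in wild type replicate 1, 2 in B7-H4-null replicate 1 and 5 in B7-H4-null replicate 2. Among all genes tested, 22.7% were lowest in wild type replicate 2 and 39.2% in B7-H4-null replicate 1. The highest level fell in B7-H4-null replicate 1 for 12 of the 28 genes, in B7-H4-null replicate 2 for 9, in wild type replicate 1 for 5 and in wild type replicate 2 for 2. The shares of all genes at their highest were 17.6% and 26.4% in B7-H4-null replicates 1 and 2, and 22.4% and 33.6% in wild type replicates 1 and 2. Summed over the 31 genes, the level was 3278 and 3025 RPKM in B7-H4-null LSCs, and 2607 and 2171 RPKM in wild type LSCs. Without wild type replicate 2, both B7-H4-null libraries lay above the remaining wild type library for 17 genes, or 60.7%, against 25.6% of all genes tested. They lay below it for 6, or 21.4%, against 39.6% of all genes. Non-overlap is more frequent with 1 library left in a group. The median log2 difference was then 0.28.

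The promoters of the genes that differ most are printed next, because the genes of the route are known to share control by hypoxia-inducible factors (HIF), whose sites contain ACGTG or GCGTG. These are the 3 genes with the largest log2 difference and the 1 with the lowest, each with 250 bases before and 50 after the annotated start, 5′ to 3′ on the gene's strand, from RefSeq on GRCm38.p6, with each ACGTG or GCGTG in capitals (printed as CACGT or CACGC where it lies on the other strand). For Aldoc, which has 2 windows, the first in the table is shown.
Slc2a1 chr4:119108495-119108794: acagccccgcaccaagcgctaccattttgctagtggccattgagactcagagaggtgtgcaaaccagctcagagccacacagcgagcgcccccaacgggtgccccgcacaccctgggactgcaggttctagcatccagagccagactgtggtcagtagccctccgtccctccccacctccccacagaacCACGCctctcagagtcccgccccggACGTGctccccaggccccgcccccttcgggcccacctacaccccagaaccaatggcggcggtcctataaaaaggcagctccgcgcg
Aldoc chr11:78322823-78323122: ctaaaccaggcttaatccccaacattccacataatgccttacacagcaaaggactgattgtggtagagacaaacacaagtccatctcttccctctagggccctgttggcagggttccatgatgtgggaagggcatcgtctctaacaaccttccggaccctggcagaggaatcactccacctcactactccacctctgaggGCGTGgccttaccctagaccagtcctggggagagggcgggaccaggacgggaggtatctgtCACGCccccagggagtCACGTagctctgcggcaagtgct
Tpi1 chr6:124814109-124814408: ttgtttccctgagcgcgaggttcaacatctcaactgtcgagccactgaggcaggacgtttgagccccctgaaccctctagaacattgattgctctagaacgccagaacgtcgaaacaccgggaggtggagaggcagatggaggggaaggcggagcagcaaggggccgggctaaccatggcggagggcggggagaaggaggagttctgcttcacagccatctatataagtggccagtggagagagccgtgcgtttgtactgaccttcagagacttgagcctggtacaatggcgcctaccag
Ldhb chr6:142507908-142508207: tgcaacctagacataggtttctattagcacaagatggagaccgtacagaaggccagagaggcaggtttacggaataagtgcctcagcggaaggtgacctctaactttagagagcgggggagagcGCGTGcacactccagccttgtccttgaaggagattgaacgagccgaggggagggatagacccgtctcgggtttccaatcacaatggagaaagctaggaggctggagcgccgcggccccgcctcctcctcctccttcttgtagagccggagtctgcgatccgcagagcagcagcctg
The letters occurred 2 times in the Slc2a1 window, 3 times in that of Aldoc, 0 times in that of Tpi1 and 1 time in that of Ldhb. Slc2a1 and Aldoc lie on the plus strand, Tpi1 and Ldhb on the minus strand.

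Windows were at hand for 30 of the 31 genes, Slc2a3 being the one without, and some genes have several. Of their 47 windows, 36 held ACGTG or GCGTG, or 76.6%, against 62.4% of the 11225 windows of genes tested and 43.8% of all 32851 windows. ACGTG alone was in 46.8% of the 47 windows, against 26.2% of the windows of genes tested. GCGTG alone was in 53.2%, close to the 50.8% of the windows of genes tested. The letters CACGTG, an E-box read by Myc and its relatives that contains ACGTG on both strands, were in 12.8% of the 47 windows, against 10.4%. Windows of the same gene can overlap, as for Eno1, and only 8882 of the 12107 genes tested have a window. By gene, either motif was in 86.7%, against 67.9% of these 8882. ACGTG was in 60.0% against 30.1%, GCGTG in 63.3% against 56.3% and CACGTG in 20.0% against 12.2%. Genes with several windows have more room for a match. A match is a run of letters and not a bound site, and these data hold no measurement of binding.

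Glucose import gave the largest difference of the route. Slc2a1 encodes GLUT1, the glucose carrier of most dividing cells (Entrez gene 20525, on chromosome 4 between bases 119108745 and 119137330, GRCm38.p6). It had 99.0 and 38.8 RPKM in B7-H4-null LSCs, against 18.1 and 10.5 RPKM in wild type LSCs. The groups did not overlap, and within each genotype the replicates themselves lay well apart, with replicate 1 higher in both. The means differed 4.82-fold, with a log2 difference of 2.09 ± 0.475 (SE, adjusted p = 0.228, limma), and without single libraries this difference ran between 1.43 and 2.75. Its promoter, printed above, holds one match of each motif.

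Slc2a3, the high-affinity carrier GLUT3, had 7.80 and 10.6 RPKM in B7-H4-null LSCs, against 10.4 and 6.74 RPKM in wild type LSCs. Its libraries overlapped, and the log2 difference was 0.11 ± 0.302 (SE). Slc2a1 made up 92.7% and 78.5% of the 2 carriers' summed RPKM in B7-H4-null LSCs, against 63.5% and 61.0% in wild type LSCs. No test of these shares was made, and with 2 against 2 samples an exact two-sided permutation test cannot go below p = 0.333.

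Hexokinase traps glucose in the cell as glucose 6-phosphate. Hk3, the form typical of myeloid cells, was the main one in every library, with 196 and 152 RPKM in B7-H4-null, against 241 and 84.1 RPKM in wild type. The wild type libraries spanned the B7-H4-null ones, and at 2.87 times this was the widest gap between wild type replicates among the 28 genes. Without wild type replicate 1 the log2 difference of Hk3 was 1.03, and without wild type replicate 2 it was −0.48, against 0.27 with both.

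Hk2, the form that many tumors induce, had 19.9 and 15.1 RPKM in B7-H4-null, against 14.3 and 6.30 RPKM in wild type. The groups did not overlap, by a narrow margin between B7-H4-null replicate 2 and wild type replicate 1, and the log2 difference was 0.79 ± 0.388 (SE, adjusted p = 0.475, limma). Leaving out wild type replicate 2 gave 0.26, leaving out its partner 1.33. Hk1, the form present in most tissues, had 27.6 and 35.0 RPKM in B7-H4-null, against 35.6 and 28.8 RPKM in wild type, and these overlapped. Gpi1, the isomerase of the next step, was among the most abundant genes of the route, with 571 and 493 RPKM in B7-H4-null, against 546 and 471 RPKM in wild type. It too overlapped between genotypes.

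Phosphofructokinase commits sugar to glycolysis. Pfkl, its liver-type subunit (Entrez gene 18641, on chromosome 10 between bases 77986947 and 78009807), had 45.7 and 42.8 RPKM in B7-H4-null, against 27.1 and 15.3 RPKM in wild type. The B7-H4-null replicates were close together and above both wild type libraries, the means differed 2.09-fold, and the log2 difference was 1.08 ± 0.319 (SE, adjusted p = 0.307, limma), or 0.69 without wild type replicate 2. Pfkm, the muscle-type subunit, had 13.6 and 9.94 RPKM in B7-H4-null, against 7.69 and 7.39 RPKM in wild type, a log2 difference of 0.57, or 0.36 without B7-H4-null replicate 1. Its groups did not overlap either.

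Pfkp, the platelet-type subunit, overlapped. It had 23.7 and 35.9 RPKM in B7-H4-null, against 17.9 and 41.9 RPKM in wild type, so that replicate 2 was the higher in both groups. Pfkp was 28.5% and 40.5% of the summed subunit level in B7-H4-null, against 33.9% and 64.9% in wild type, and Pfkl was the leading subunit in every library but wild type replicate 2. Summed over the 3 subunits, the level was 83.0 and 88.6 RPKM in B7-H4-null, against 52.7 and 64.6 RPKM in wild type.

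The bifunctional enzymes that make and break fructose 2,6-bisphosphate, an activator of phosphofructokinase, had negative log2 differences. Pfkfb3, the form with the strongest kinase activity, had 18.5 and 17.9 RPKM in B7-H4-null, against 28.7 and 20.9 RPKM in wild type. Both B7-H4-null libraries lay below both wild type libraries, with a log2 difference of −0.41 ± 0.263 (SE, adjusted p = 0.582, limma). Leaving out wild type replicate 1 gave −0.19, leaving out its partner −0.63. After median-ratio scaling of all libraries the groups overlapped for Pfkfb3, with a log2 difference of −0.31. Pfkfb2, known best from the heart, had 1.73 and 1.67 RPKM in B7-H4-null, against 2.23 and 2.03 RPKM in wild type. Its groups did not overlap, before or after that scaling. Pfkfb4 overlapped, with 9.44 and 6.74 RPKM in B7-H4-null, against 11.2 and 7.31 RPKM in wild type.

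The steps that split the sugar and rearrange its fragments held the next largest differences. Aldoa, the aldolase of most tissues, had 503 and 530.3 RPKM in B7-H4-null, against 408 and 284 RPKM in wild type, without overlap and with a log2 difference of 0.60, which was 0.34 without wild type replicate 2 and 0.39 after quantile normalization. Aldoc, its brain-type paralog (Entrez gene 11676, on chromosome 11 between bases 78323073 and 78327781), had 9.73 and 4.56 RPKM in B7-H4-null, against 2.66 and 2.19 RPKM in wild type. The means of Aldoc differed 2.95-fold, with a log2 difference of 1.18 ± 0.360 (SE, adjusted p = 0.320, limma), and B7-H4-null replicate 1 stood highest. That difference was 0.70 when this library was left out and 1.65 when its partner was. Aldoc was at most 1.9% of the summed aldolase level, so the total followed Aldoa.

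Tpi1, triosephosphate isomerase, which makes both fragments usable (Entrez gene 21991, on chromosome 6 between bases 124810586 and 124814158), had 564 and 286 RPKM in B7-H4-null, against 205 and 163 RPKM in wild type. The groups did not overlap, and on a log scale B7-H4-null replicate 1 lay farther from replicate 2 than replicate 2 lay from either wild type library. The means differed 2.31-fold, with a log2 difference of 1.13 ± 0.376 (SE, adjusted p = 0.331, limma), and leaving out B7-H4-null replicate 1 gave 0.64, leaving out its partner 1.62. Its promoter window, printed above, holds neither ACGTG nor GCGTG.

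Gapdh, the dehydrogenase that first yields NADH (Entrez gene 14433, on chromosome 6 between bases 125161852 and 125166467), had 30.3 and 26.3 RPKM in B7-H4-null, against 19.0 and 13.3 RPKM in wild type. The groups did not overlap and the log2 difference was 0.79 ± 0.274 (SE, adjusted p = 0.336, limma). Tpi1 stood 10.8 to 18.6 times above Gapdh per length in the 4 libraries. Gapdh has copies annotated elsewhere in the mouse genome, as do Ldha, Ldhb, Pgk1, Pgam1, Aldoa and Eno1. The sources used here do not say how reads that match several places were counted, so the levels of these genes are uncertain.

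Next come the steps that yield ATP and pyruvate. Pgk1, phosphoglycerate kinase, had 35.1 and 45.9 RPKM in B7-H4-null, against 30.2 and 30.5 RPKM in wild type. Eno1, the enolase of most tissues, had 122 and 160 RPKM in B7-H4-null, against 92.5 and 88.2 RPKM in wild type. Neither overlapped between genotypes, with log2 differences of 0.39 ± 0.256 for Pgk1 and 0.62 ± 0.264 for Eno1 (SE, adjusted p = 0.585 and 0.413, limma). For Pgk1 it was 0.21 without B7-H4-null replicate 2.

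Pgam1, phosphoglycerate mutase, had 36.9 and 51.4 RPKM in B7-H4-null, against 41.5 and 41.6 RPKM in wild type, so the nearly equal wild type libraries lay between the B7-H4-null ones. Eno3, the muscle-type enolase, had 26.4 and 11.1 RPKM in B7-H4-null, against 15.5 and 16.3 RPKM in wild type, with the same layout. Eno2, the neuronal enolase, was close to silent, with 4 reads over the B7-H4-null libraries and 3 over the wild type libraries. Eno3 was 17.8% and 6.51% of the summed enolase level in B7-H4-null, against 14.3% and 15.6% in wild type.

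Pkm, pyruvate kinase, had 513 and 498 RPKM in B7-H4-null, against 438 and 436 RPKM in wild type. Its replicates were close in both groups and the groups did not overlap, yet the log2 difference was only 0.21 ± 0.255 (SE, adjusted p = 0.774, limma). The table holds 1 value per gene, so the M1 and M2 splice forms of Pkm cannot be told apart. Pklr, the pyruvate kinase of liver and red cells, had 0 reads in both B7-H4-null libraries and 6 reads over the wild type libraries. The exact 95% Poisson interval of 6 reads is 2.2 to 13.1 reads, and that of 0 reads is 0 to 3.69 reads, counting error only. Overlap of these intervals does not settle whether the genotypes differ, and Pklr fell below the filter of the test.

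**Figure D2:**
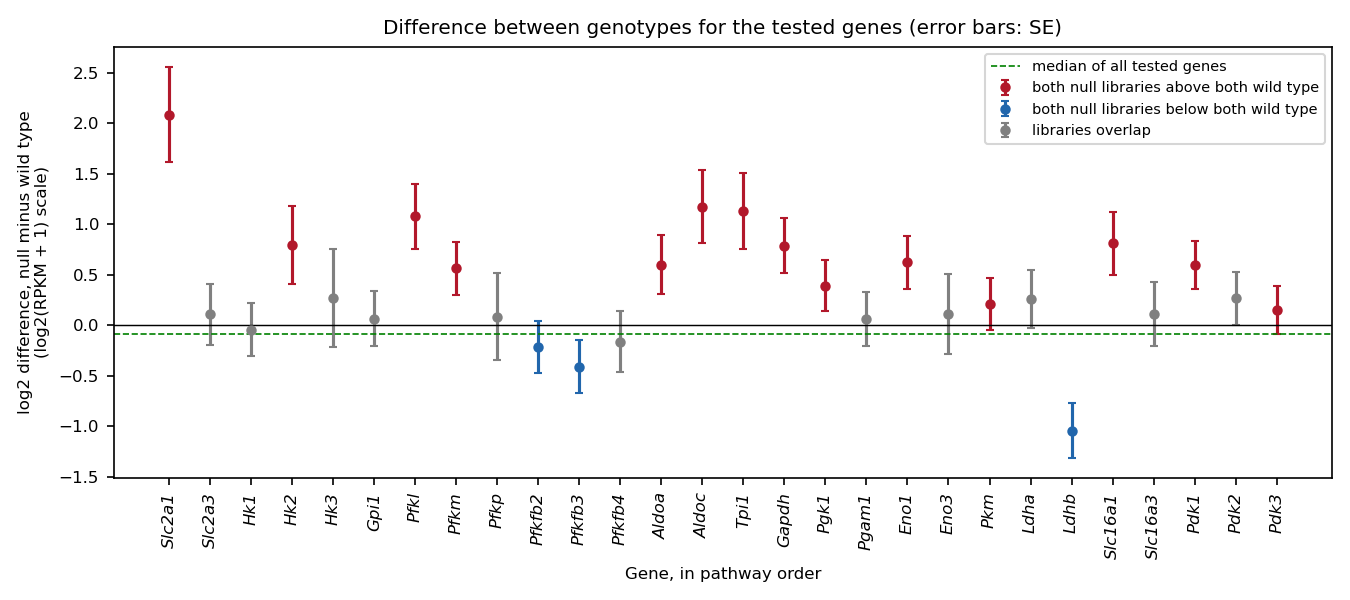
Log2 difference (B7-H4-null minus wild type, on log2(RPKM + 1)) of the 28 tested genes in pathway order, with SE bars from limma; red marks genes whose B7-H4-null libraries both lie above both wild type libraries, blue those below, grey those that overlap, and the green line the median of all genes tested at −0.09. Slc2a1 is highest at 2.09 and Ldhb lowest at −1.05.

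At the lactate end, of the paralogs of lactate dehydrogenase, Ldhb was lower in B7-H4-null without overlap and Ldha overlapped. Ldhb, the heart-type subunit, which favors turning lactate back into pyruvate (Entrez gene 16832, on chromosome 6 between bases 142490249 and 142507957), had 3.46 and 3.01 RPKM in B7-H4-null, against 6.57 and 9.05 RPKM in wild type. Both B7-H4-null libraries lay below both wild type libraries, the ratio of means was 0.414, and the log2 difference was −1.05 ± 0.270 (SE, adjusted p = 0.259, limma). Without single libraries it ran between −1.25 and −0.84. Its sign could not turn there, since the groups did not overlap.

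Ldha, the muscle-type subunit, which favors lactate, had 301 and 435 RPKM in B7-H4-null, against 294 and 310.4 RPKM in wild type. It overlapped, since wild type replicate 2 exceeded B7-H4-null replicate 1, and its log2 difference was 0.26 ± 0.290 (SE, adjusted p = 0.748, limma). Ldha stood 87.2 and 144 times above Ldhb in B7-H4-null, against 44.7 and 34.3 times in wild type. Ldhb was 1.13% and 0.688% of the summed level in B7-H4-null and 2.19% and 2.83% in wild type, and no test of this share was made.

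Slc16a1 encodes MCT1, a carrier of lactate and pyruvate found in most cells. It had 15.7 and 20.0 RPKM in B7-H4-null, against 12.5 and 7.46 RPKM in wild type, without overlap; its log2 difference was 0.81 ± 0.311 (SE, adjusted p = 0.372, limma), or 0.47 without wild type replicate 2. Slc16a3, which encodes MCT4, the exporter of strongly glycolytic cells, overlapped, with 31.8 and 45.4 RPKM in B7-H4-null, against 43.3 and 28.5 RPKM in wild type. Slc16a3 was the larger of the pair in every library, 2.02 and 2.27 times Slc16a1 in B7-H4-null, against 3.46 and 3.82 times in wild type.

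Pdk1, a kinase that switches off pyruvate dehydrogenase and a textbook HIF target, had close replicates. Its level was 23.8 and 24.6 RPKM in B7-H4-null, against 15.8 and 15.6 RPKM in wild type. Replicates differed far less than genotypes, and the log2 difference of 0.60 ± 0.235 (SE, adjusted p = 0.382, limma) stayed between 0.57 and 0.62 without single libraries.

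Its paralogs showed less. Pdk3 had 21.1 and 20.0 RPKM in B7-H4-null, against 18.5 and 18.3 RPKM in wild type, without overlap but with a log2 difference of only 0.15, or 0.25 after median-ratio scaling. Pdk2 overlapped, with 5.96 and 4.70 RPKM in B7-H4-null, against 3.79 and 4.72 RPKM in wild type. Pdk4, which is induced by fasting in other tissues, had 0 reads in all 4 libraries, where 3 reads in a gene of 2 kb would be worth 0.139 to 0.159 RPKM.

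**Figure D3:**
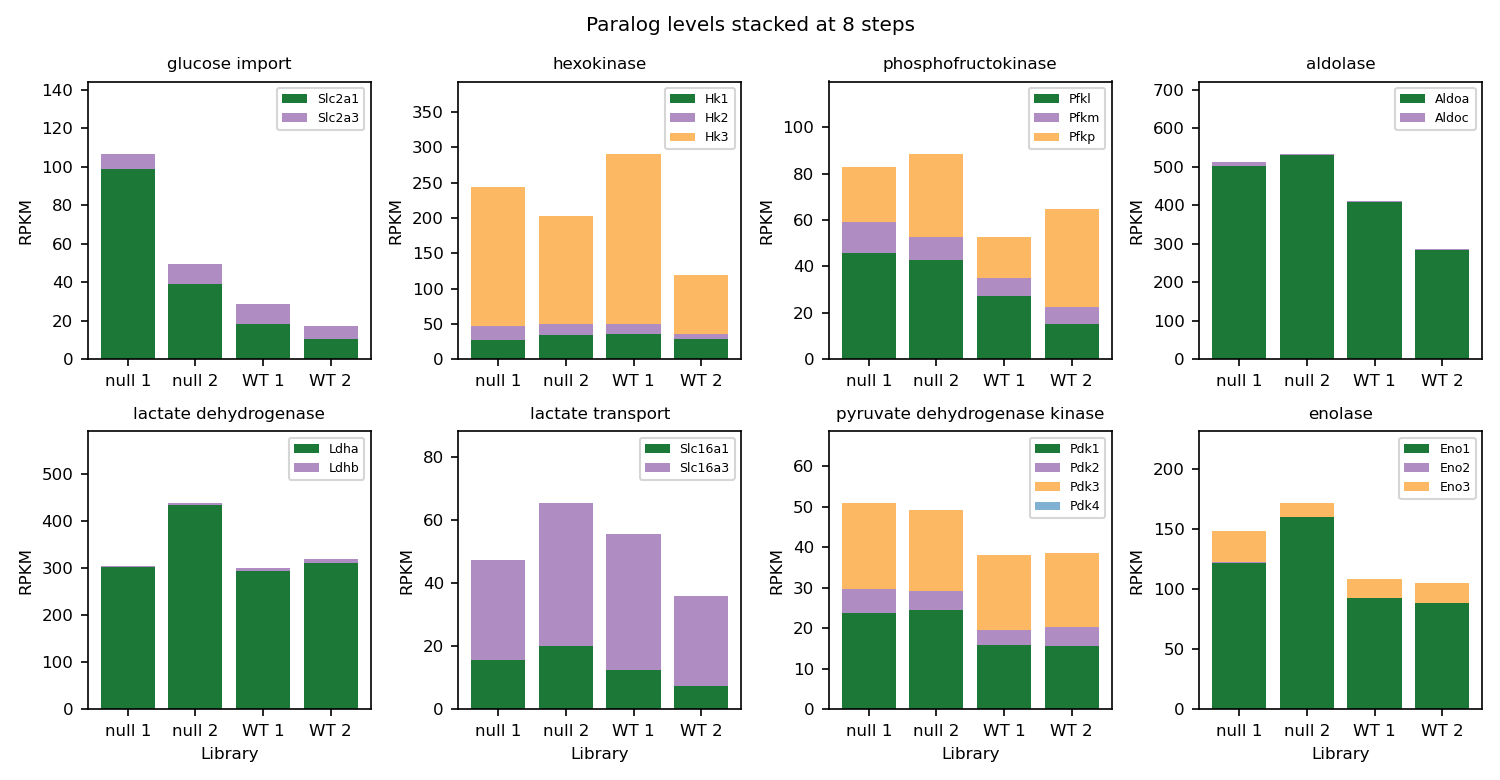
Summed RPKM of the paralogs at 8 steps, one stacked bar per library (2 B7-H4-null on the left, 2 wild type on the right), with each color a paralog. Slc2a1 makes up most of glucose import and Hk3 most of hexokinase in every library, while Pfkp makes up the largest part of phosphofructokinase in wild type replicate 2.

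Genes beside the route were set next to it, from lists chosen with earlier results of these data known. In limma 0 of their genes passed at an adjusted p of 0.05, and voom gave 0 as well. Counts at an unadjusted p under 0.05 follow by list, where 5.05% of all genes tested were higher and 7.2% lower. Of all genes tested, 16.0% were higher and 28.0% lower without overlap, or 22.1% and 22.2% after median-ratio scaling. Other members of the same families, 11 tested of 23 listed, had a median log2 difference of 0.04, with 4 higher and 1 lower without overlap, and 1 at an unadjusted p under 0.05, Slc2a6. Slc2a6, a carrier in the membrane of lysosomes, had 7.26 and 16.5 RPKM in B7-H4-null, against 3.97 and 5.14 RPKM in wild type (adjusted p = 0.336, limma). Bsg, the partner protein that brings MCT1 and MCT4 to the cell surface, had 141 and 162 RPKM in B7-H4-null, against 121 and 116 RPKM in wild type (adjusted p = 0.614, limma).

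The pentose phosphate genes, which branch off at glucose 6-phosphate, had a median of −0.21 over 8 tested of 10 listed, with 1 higher and 4 lower without overlap, and 1 at an unadjusted p under 0.05. The higher one was Pgls, which opens the lactone ring, with 249 and 320 RPKM in B7-H4-null, against 155 and 192 RPKM in wild type (adjusted p = 0.382, limma). Among the lower ones was G6pdx, the entry enzyme of the branch, with 46.1 and 62.7 RPKM in B7-H4-null, against 93.0 and 64.8 RPKM in wild type (adjusted p = 0.544, limma). After median-ratio scaling the groups overlapped for G6pdx, with a log2 difference of −0.42, and 2 other pentose phosphate genes were lower without overlap. The median of the list was −0.082 when B7-H4-null replicate 1 was left out and −0.067 when wild type replicate 1 was. The genes that carry pyruvate into mitochondria and oxidize it there overlapped between genotypes for all 11 tested of 12 listed, with a median of 0.03 and 0 at an unadjusted p under 0.05. After median-ratio scaling 4 were higher without overlap, or 36.4%, against 22.1% of all genes tested. Pdha1, the catalytic subunit that the Pdk kinases act on, had 84.7 and 94.0 RPKM in B7-H4-null, against 71.5 and 89.4 RPKM in wild type.

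Gluconeogenesis genes had a median of 0.28 over 4 tested of 8 listed, with 2 higher and 0 lower without overlap, and 0 at an unadjusted p under 0.05. Glycogen genes had a median of 0.04 over 15 tested of 16 listed, and likewise 0 at that p. Without overlap, 2 were higher and 4 lower, or 13.3% and 26.7%, close to the 16.0% and 28.0% of all genes tested. Pygl, the phosphorylase that releases sugar from glycogen, had 160 and 130.4 RPKM in B7-H4-null, against 197.8 and 198 RPKM in wild type (adjusted p = 0.540, limma).

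**Figure D4:**
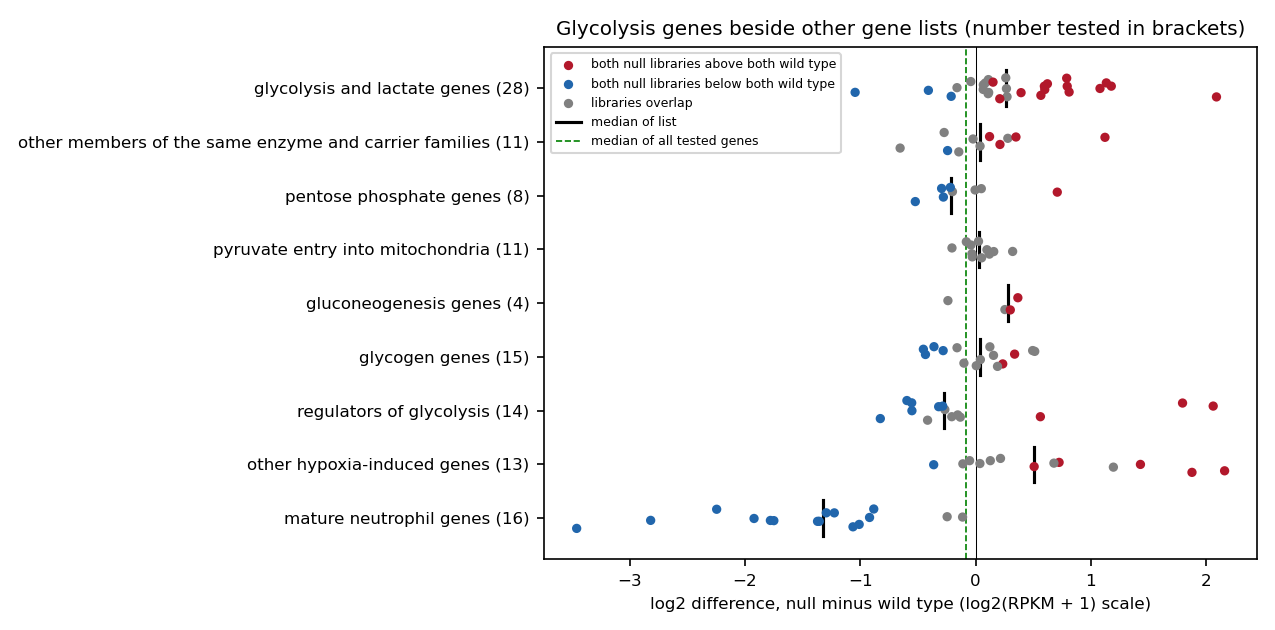
Log2 difference (B7-H4-null minus wild type) of each tested gene, by list, with the number tested in brackets; black bars are list medians, colors are as in the plot of differences by gene, and the green line is the median of all genes tested. The glycolysis and lactate genes have a median of 0.26, the pentose phosphate genes of −0.21 and the mature neutrophil genes of −1.33.

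Regulators of the route went both ways. Of 14 tested of 18 listed, 3 were higher and 6 lower without overlap, or 21.4% and 42.9%, against 16.0% and 28.0% of all genes. The list had a median of −0.28, and an unadjusted p under 0.05 for 2 of the higher and 2 of the lower genes. That median was −0.077 when B7-H4-null replicate 1 was left out and −0.55 when its partner was. Myc, a transcription factor that drives many of these genes, had 162 and 120 RPKM in B7-H4-null, against 69.3 and 15.1 RPKM in wild type, a log2 difference of 2.06 ± 0.637 (SE, adjusted p = 0.320, limma). Myc was lowest in wild type replicate 2, as were 17 of the 28 route genes and 22.7% of all genes tested. A link between Myc and the route genes was not tested. Without wild type replicate 1 its log2 difference was 3.12 and it passed the test (adjusted p = 0.0138, limma). Without wild type replicate 2 the difference was 0.9996, and over all alternatives its adjusted p ran between 0.0138 and 0.675.

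Genes of oxygen sensing lay on both sides. Vhl, which marks HIF for destruction, had 9.68 and 9.59 RPKM in B7-H4-null, against 15.6 and 20.4 RPKM in wild type (adjusted p = 0.320, limma). Hif1an, an oxygenase that restrains HIF, had 3.96 and 4.33 RPKM in B7-H4-null, against 6.75 and 6.80 RPKM in wild type (adjusted p = 0.396, limma). Hif1a, a subunit of HIF named after its values were seen, overlapped, with 14.6 and 26.8 RPKM in B7-H4-null, against 20.3 and 23.5 RPKM in wild type. Egln3, an oxygen sensor that is itself induced by HIF, had 72.7 and 13.3 RPKM in B7-H4-null, against 11.1 and 6.21 RPKM in wild type (adjusted p = 0.387, limma), and its B7-H4-null mean rested on replicate 1.

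Other genes known to be induced by low oxygen, 13 tested of 15 listed, had a median of 0.51. Without overlap, 5 were higher and 1 lower, or 38.5% and 7.69%, against 16.0% and 28.0% of all genes. At an unadjusted p under 0.05 there were 4, all higher, where 5.05% of all genes were. P4ha1, which hydroxylates collagen, had 17.2 and 14.3 RPKM in B7-H4-null, against 5.46 and 4.95 RPKM in wild type, a log2 difference of 1.43 ± 0.248 (SE, adjusted p = 0.137, limma). Replicates of P4ha1 were close and the genotypes well apart. Ankrd37 had 28.7 and 7.67 RPKM in B7-H4-null, against 4.03 and 1.56 RPKM in wild type (adjusted p = 0.295, limma).

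Several of these genes were highest in B7-H4-null replicate 1, and the summed level of the list was 657 and 263 RPKM in B7-H4-null LSCs, against 289 and 216 RPKM in wild type LSCs. Ddit4, an inhibitor of mTOR signalling, had 213 and 38.7 RPKM in B7-H4-null, against 21.5 and 26.9 RPKM in wild type (adjusted p = 0.369, limma). Vegfa, the vascular growth factor, also named after its values were seen, overlapped, with 177 and 26.3 RPKM in B7-H4-null, against 86.0 and 9.67 RPKM in wild type, replicate 1 being the higher in both groups. The median of the list was 0.17 when B7-H4-null replicate 1 was left out and 0.14 when wild type replicate 2 was.

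Markers of maturation differed in level between the same libraries. All 16 mature neutrophil genes had log2 differences below 0, with a median of −1.33. Without overlap, 14 of them were lower, or 87.5%, against 28.0% of all genes tested. At an unadjusted p under 0.05, 12 were lower, where 7.2% of all genes were, and none passed the adjusted threshold in limma. After median-ratio scaling 12 of the 16 were lower without overlap, or 75.0%, against 22.2% of all genes tested. The summed level of the neutrophil genes was 8685 and 12570.0 RPKM in B7-H4-null, against 31870.0 and 24370.0 RPKM in wild type. Of the sort markers, Itgam and Itgb2 were lower without overlap and Kit overlapped. After median-ratio scaling Itgam overlapped as well, and Itgb2 alone stayed lower. In bulk RNA, fewer cells of one stage and less RNA per cell cannot be told apart, and the part of maturation in the values of the glycolysis genes was not tested.

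Markers of other cell types were mostly below 1 RPKM, and their part in the result was not tested. Of the T and NK cell markers, 0 of 10 reached 1 RPKM in any library, with summed levels of 0.884 to 1.45 RPKM in B7-H4-null and 0.592 to 1.3 RPKM in wild type, and Cd8b1 at 0 throughout. Of the erythroid markers in the table, 2 of 9 reached 1 RPKM, and the summed level of 57.6 to 175 RPKM in B7-H4-null and 28.8 to 72.8 RPKM in wild type was nearly all Tfrc, the transferrin receptor, which dividing cells also express. Of the B cell markers, 2 of 8 reached 1 RPKM, with Pax5 at 0. Their summed level was 60.9 to 63.8 RPKM in B7-H4-null and 36.8 to 46.4 RPKM in wild type, mainly Cd79b. The other was Vpreb1, with 12 and 17 reads in B7-H4-null, against 0 and 1 in wild type. It passed the filter of the test only through the B7-H4-null libraries. Cd79b and Vpreb1 were both higher in B7-H4-null without overlap, where 16.0% of all genes tested were. Of the megakaryocyte and platelet markers, 3 of 7 reached 1 RPKM, with summed levels of 5.21 to 17.4 RPKM in B7-H4-null and 6.19 to 7.27 RPKM in wild type. Of the stromal and endothelial markers, 2 of 9 reached 1 RPKM, with 32.8 to 38.4 RPKM in B7-H4-null and 19.5 to 19.6 RPKM in wild type, mainly Pecam1, which myeloid cells also express.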

How the data were processed

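RNA of 4 libraries, 2 B7-H4-null and 2 wild type, was prepared by the TruSeq RNA v2 protocol and read on a HiSeq2500, per the labels. Reads were aligned with TopHat2 2.0.12 to GRCm38, per the submitters' processing notes. The sources used here do not give the counting program, its annotation, strand setting or treatment of multiply mapped reads. The authors deposited 1 table of RPKM values, a unit taken from the values themselves: within a gene, RPKM values step by a fixed amount, the worth of 1 read. The steps put library totals at 9419425 and 10814448 reads (B7-H4-null) and 10144166 and 9933947 reads (wild type). Among genes detected in all 4 libraries, 14608 of 14608 then gave integer reads, within 0.001. The recovered reads sum to 10193969 to 11870445 per library, above these totals, and the cause was not tested. A tested gene of the route had 42 to 15810 reads per library. Gene IDs were matched to symbols and coordinates with the RefSeq table of GRCm38.p6, 25275 of 27179 IDs.

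The 12107 genes that reached 1 RPKM in 2 or more libraries were tested with limma 3.58.1 in R 4.3.3. The test was two-sided, on log2(RPKM + 1) with a mean-variance trend and no term beside genotype. A check on simulated reads required only that large changes keep their direction, so it does not vouch for power or false calls. The alternatives were a pseudocount of 0.1, no filter, a filter at 5 RPKM, median-ratio scaling, quantile normalization, no trend, limma's voom on recovered reads, the replicate number as a block, and leaving out each library. The glycolysis genes and 14 further lists were chosen with earlier results of these data known. All 31 genes of the route are named. Of each other pathway list up to 4 members with the smallest p may be named with values. Hif1a, Vegfa and Vpreb1 were added after their values were seen. Of the 165 genes on the further lists, 1 (Hbb-bt) was not analysed here.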

Additional observations from a re-analysis of the deposited data

How the results depend on the processing

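No glycolysis or lactate gene passed the test under any alternative tried. The count over all genes was 12, and it was 0 with no filter on low values (more genes tested), 21 with the replicate number as a block, and 0 to 56 without single libraries. The replicate numbers are shared by name only: deviations of same-numbered libraries correlated at 0.247 over 12107 genes, with 2 pairs, and with the block the smallest adjusted p of the route was 0.0535 (limma, Slc2a1; 0.0535 to 0.628 over its alternatives). The median log2 difference of the route was 0.26, 0.36 after median-ratio scaling and 0.28 to 0.39 without single libraries. Without single libraries, where non-overlap is more frequent, 17 to 18 genes of the route lay above the wild type libraries (25.6% to 33.6% of all genes) and 4 to 6 below (38.5% to 49.8% of all genes), in place of 14 and 3. On the other pathway lists the count was 0, and 0 to 1 without single libraries.

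Some settings turned the sign of small differences, and the cause was not tested. Median-ratio scaling gave Hk1 0.058, and quantile normalization gave Gpi1 −0.19 and Pkm −0.028. Without single libraries the log2 difference ran between −0.17 and 0.39 for Slc2a3, −0.21 and 0.12 for Hk1, −0.48 and 1.03 for Hk3, −0.041 and 0.17 for Gpi1, −0.51 and 0.68 for Pfkp, −0.44 and 0.11 for Pfkfb4, −0.17 and 0.30 for Pgam1, −0.47 and 0.70 for Eno3, −0.0019 and 0.52 for Ldha, and −0.18 and 0.40 for Slc16a3. List medians ran between 0.031 and 0.12 for the other family members, −0.021 and 0.15 for pyruvate entry, 0.17 and 0.39 for gluconeogenesis and −0.24 and 0.093 for glycogen, and the gluconeogenesis median was 0.013 with no filter. Of the genes on the other lists the difference ran between −0.49 and 0.082 for Pdpr, −0.0020 and 0.32 for Pdha1, −0.59 and 1.23 for Pcx, −0.016 and 0.26 for Pdp2, −0.0065 and 0.51 for Pck2, and −0.61 and 0.13 for Fbp1. Where an arm had 1 library, limma took its spread from the other group. Eno2, Pklr and Pdk4 fell below the filter of the main fit, and no conclusion is drawn on their difference.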
